A study of Homo sapiens with 6 samples.

Results

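The metallothionein genes, the metal-responsive transcription factor MTF1 and the zinc exporter SLC30A1 were followed in sorafenib-resistant hepatocellular carcinoma cells treated with fostamatinib. The 9 genes were taken by symbol (MT1A, MT1E, MT1F, MT1G, MT1M, MT1X, MT2A, MTF1 and SLC30A1), and 8 of them were measured among 16305 genes in all. MT1G was not analysed here. The cells were Huh7SR, a pool of sorafenib-resistant cells derived from the human hepatocellular carcinoma line Huh7. RNA-seq was performed on 3 samples treated with Fostamatinib, an inhibitor of spleen tyrosine kinase, and 3 treated with DMSO, its vehicle. The study reports that the protein of this kinase was not found in Huh7 cells. The labels give 2 µM and 24 h for every sample, the DMSO samples included. No parental Huh7 cells enter the comparison, so each value describes resistant cells of 1 pool, and whether the samples of a group were separate cultures is not stated.

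Metallothioneins are small, cysteine-rich proteins that bind zinc and copper in the cytosol, and liver is one of the organs in which they are best known. When free zinc rises, MTF1 binds metal response elements in the promoters of metallothionein genes and of SLC30A1 and activates them. SLC30A1 (also called ZnT1) moves zinc out of the cell across the plasma membrane. Metallothionein transcripts therefore serve widely as a readout of available zinc, although glucocorticoids and inflammatory cytokines also induce them.

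The promoters are shown because the metal response element is the sequence through which these genes are known to be co-regulated. RefSeq promoters were found for 4 of the 9 genes (MT2A, MT1X, MTF1 and SLC30A1). The 250 bases before the transcription start are printed 5′ to 3′ on the strand of the gene, with capitals marking each match to the core of the metal response element (TGCACNC or TGCGCNC, searched on both strands, 7 letters each). They lie in GRCh38.p14 at chr16:56608334-56608583 (+ strand) for MT2A, chr16:56682220-56682469 (+ strand) for MT1X and chr1:211579162-211579411 (- strand) for SLC30A1.
MT2A: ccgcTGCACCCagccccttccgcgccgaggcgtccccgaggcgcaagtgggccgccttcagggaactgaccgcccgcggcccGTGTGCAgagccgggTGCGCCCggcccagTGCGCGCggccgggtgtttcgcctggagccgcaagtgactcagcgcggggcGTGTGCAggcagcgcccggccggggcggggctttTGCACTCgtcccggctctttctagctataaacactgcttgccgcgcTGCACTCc
MT1X: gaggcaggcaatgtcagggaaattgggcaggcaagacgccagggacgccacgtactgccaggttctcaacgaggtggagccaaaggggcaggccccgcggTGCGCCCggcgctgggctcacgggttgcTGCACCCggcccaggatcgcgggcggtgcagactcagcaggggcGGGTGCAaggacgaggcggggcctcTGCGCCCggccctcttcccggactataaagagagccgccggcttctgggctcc
SLC30A1: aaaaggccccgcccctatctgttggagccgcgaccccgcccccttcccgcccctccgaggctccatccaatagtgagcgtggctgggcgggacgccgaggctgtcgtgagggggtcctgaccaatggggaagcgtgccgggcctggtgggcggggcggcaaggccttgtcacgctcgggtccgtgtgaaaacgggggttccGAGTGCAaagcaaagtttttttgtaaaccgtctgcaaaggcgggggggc
The MT2A promoter held 7 matches, that of MT1X 4 and that of SLC30A1 1, and none of them overlapped. In the same window of MTF1 these letters were not found. Of 35116 RefSeq promoters, 24.8% held at least 1 match, 0.37% at least 4 and 0.0313% at least 7. A match is a likeness of letters and not a measured binding site.

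The 6 libraries held 13303451 to 15272737 reads on the genes kept by the authors' filter. Between libraries of the same group the chi-square of the reads per degree of freedom was 1.65 to 3.74, above counting error, and each library was kept as its own sample. All 7 hepatocyte markers examined were measured and passed the test given below as higher after Fostamatinib, as did 23.3% of all genes. The summed level of these markers was 2551 to 2739 CPM (reads scaled to the library size) with DMSO against 3574 to 3815 CPM with Fostamatinib. Of 5 fibroblast markers 4 were measured, with a sum of 149 to 154 CPM against 193 to 200 CPM, mostly from COL1A2. Of 4 leukocyte markers 2 were measured, at 9.76 to 11.1 CPM in sum against 9.60 to 11.6 CPM, and of 3 endothelial markers 1 (PECAM1), at 6.10 to 6.93 CPM against 8.72 to 9.89 CPM. The part of these markers in the results below was not tested.

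MT2A was by far the most abundant member, and the order of the members by level was nearly the same with and without the drug. Levels between genes were compared as RPKM, the CPM divided by the length of the canonical transcript in kilobases. In the DMSO samples MT2A stood at 236 ± 9.70 RPKM (SD, n = 3), MT1E at 53.3 ± 3.48 RPKM and MT1F at 31.1 ± 3.10 RPKM. These 3 metallothioneins did not overlap with each other in any group. MT1X (10.1 ± 1.32 RPKM) and SLC30A1 (9.97 ± 0.991 RPKM) followed, and their DMSO samples overlapped. MTF1, a transcription factor, was lower at 4.67 ± 0.168 RPKM. MT1A (3.15 ± 0.576 RPKM) and MT1M (3.07 ± 0.676 RPKM) came last and could not be ordered. In the Fostamatinib samples MT2A stood at 251 ± 3.89 RPKM, MT1E at 49.2 ± 0.783 RPKM and MT1F at 38.7 ± 5.07 RPKM. There SLC30A1 (9.50 ± 0.680 RPKM) lay above MT1X (7.91 ± 0.408 RPKM) without overlap, while MT1M (2.01 ± 0.815 RPKM) and MT1A (1.71 ± 0.421 RPKM) again overlapped. The order depends on the gene model. The union of all annotated exons is 1852 bases for MT1F against 425 in its canonical transcript. Over this union MT1F fell to 7.14 RPKM and below SLC30A1 in the DMSO samples. MT1X, with 1727 bases against 404, fell there to 2.36 RPKM and came last, after MTF1 (4.64), MT1A (3.15) and MT1M (2.39).

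**Figure D1:**
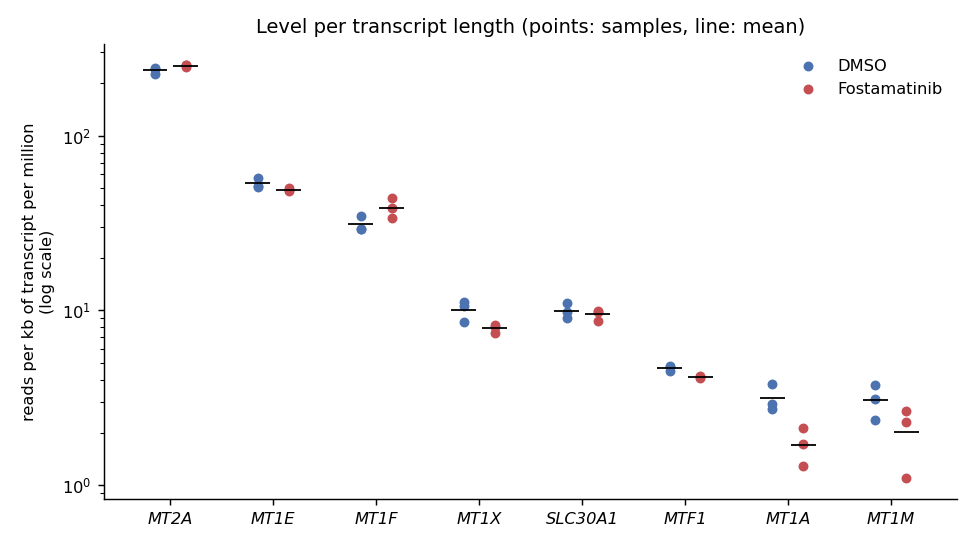
Level of the 8 measured members in RPKM over the canonical transcript (log axis), with 1 point per sample (blue DMSO, red Fostamatinib) and a line at the group mean. MT2A lies at 225 to 255 in all samples, and MT1A and MT1M lie between 1.10 and 3.81.

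After Fostamatinib 3 of the 8 members passed the test: MT1F was higher, and MT1A and MTF1 were lower. The most abundant metallothioneins, MT2A and MT1E, did not pass, and their 95% intervals kept within 0.24 of no change on the log2 scale. By comparison, 47.8% of the 16305 genes passed the same test (23.3% higher and 24.5% lower). The median absolute log2 fold change was 0.24 over the 8 members and 0.27 over all genes. No member had an estimated change of more than 2-fold, against 7.13% of all genes that passed the test and did. The 95% intervals of MT1A (down to -1.57) and MT1M (down to -1.38) reached past a 2-fold fall. The test was limma's linear model on the deposited log2 CPM, adjusted by the Benjamini-Hochberg method over all 16305 genes, with an adjusted p-value under 0.05 taken as a call. In bulk samples, fewer expressing cells and less RNA per cell cannot be told apart.

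MT2A (ENSG00000125148, chromosome 16 of GRCh37 from 56642496 to 56643409), which carried most metallothionein reads, had 6.59, 6.61 and 6.50 log2 CPM in the DMSO samples and 6.66, 6.67 and 6.63 log2 CPM in the Fostamatinib samples. All 3 treated samples lay above all 3 controls, by a small margin. The log2 fold change was 0.09 (standard error 0.048, 95% interval -0.0075 to 0.19) and was not called (adjusted p = 0.124). Without DMSO replicate 3, its lowest sample, it was 0.056. Samples of the 2 groups did not overlap for 54.1% of all genes.

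MT1E (ENSG00000169715, chromosome 16 from 56659387 to 56661024), the next in abundance, had 5.26, 5.42 and 5.25 log2 CPM with DMSO and 5.22, 5.18 and 5.20 log2 CPM with Fostamatinib. The treated samples all lay below the controls, but the nearest ones differed little. Its log2 fold change was -0.11 (standard error 0.064, 95% interval -0.24 to 0.017), also not called (adjusted p = 0.149). Without DMSO replicate 2, its highest sample, it was -0.060.

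MT1F (ENSG00000198417, chromosome 16 from 56691643 to 56694610) was the only member called higher. Its values were 3.65, 3.89 and 3.64 log2 CPM with DMSO and 4.23, 3.85 and 4.03 log2 CPM with Fostamatinib, from 172, 225 and 185 reads against 257, 205 and 216 reads. The groups overlapped, since the highest control lay above the lowest treated sample. The log2 fold change was 0.31 (standard error 0.10, 95% interval 0.10 to 0.52, adjusted p = 0.0113). The call rested on single samples and on the variance model: the log2 fold change was 0.22 without Fostamatinib replicate 1 (adjusted p = 0.121) and 0.27 without DMSO replicate 1 (adjusted p = 0.0524), and without limma's mean-variance trend the adjusted p was 0.102.

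MT1X (ENSG00000187193, chromosome 16 from 56716382 to 56718108) gave 48, 65 and 67 reads with DMSO against 46, 46 and 40 reads with Fostamatinib, or 1.82, 2.10 and 2.18 log2 CPM against 1.76, 1.71 and 1.61 log2 CPM. Every treated sample was below every control. The log2 fold change of -0.34 (standard error 0.18, 95% interval -0.71 to 0.024) was not called (adjusted p = 0.119).

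MT1A (ENSG00000205362, chromosome 16 from 56672578 to 56673999) had few reads, 16, 23 and 16 with DMSO and 7, 12 and 9 with Fostamatinib. The groups did not overlap. Its estimated fall was the largest of the members, at -0.86 on the log2 scale (standard error 0.35, 95% interval -1.57 to -0.15, adjusted p = 0.0400). The adjusted p was 0.0660 without DMSO replicate 1, 0.153 without DMSO replicate 2, 0.133 without Fostamatinib replicate 1 and 0.0630 without Fostamatinib replicate 3, with log2 fold changes of -0.90, -0.72, -0.68 and -0.88. On the scale of log2(CPM + 1) the change was -0.42. The falls of MT1A and MT1M (-0.65, standard error 0.36) could not be ranked, and their log2 ratio overlapped between the groups. Without Fostamatinib replicate 3 the estimate for MT1M was the larger fall, at -0.89.

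MT1M (ENSG00000205364, chromosome 16 from 56666571 to 56667893) was about as scarce, with 13, 19 and 22 reads with DMSO and 6, 13 and 14 reads with Fostamatinib. On the log2 CPM scale the controls were at -0.03, 0.35 and 0.60 and the treated samples at -1.08, -0.08 and 0.13, so that Fostamatinib replicate 1 was low, replicate 2 lay just under the lowest control and replicate 3 lay within the controls. The log2 fold change was -0.65 (standard error 0.36, 95% interval -1.38 to 0.079), and the gene was not called (adjusted p = 0.138). It was -0.28 without Fostamatinib replicate 1 and -0.31 on the scale of log2(CPM + 1). At this depth a change of MT1M smaller than its interval could not be resolved.

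**Figure D2:**
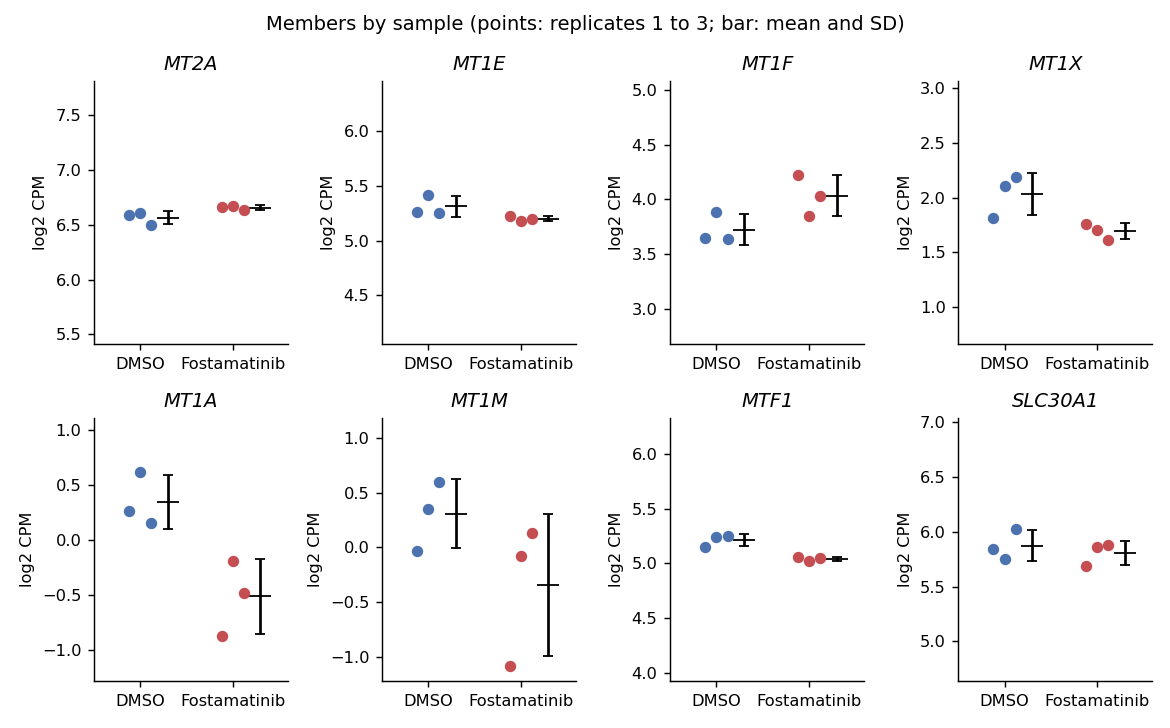
Deposited log2 CPM of the 8 measured members in each sample (points, replicates 1 to 3 from left to right), with the mean and SD of each group. Every panel spans the same height on the log2 scale, so the groups of MT2A at 6.57 and 6.66 look close while those of MT1A at 0.34 and -0.52 stand apart.

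The summed metallothionein level overlapped between the groups. Together the 6 measured metallothioneins took 148 to 162 CPM with DMSO and 157 to 161 CPM with Fostamatinib. The share of each gene in this pool is a description. MT1E took 25.1% to 26.3% of the metallothionein reads with DMSO and 22.9% to 23.4% with Fostamatinib. MT1F took 8.18% to 9.09% against 9.12% to 11.6%, MT1X 2.28% to 3.05% against 1.93% to 2.07%, and MT1A 0.727% to 0.929% against 0.315% to 0.534%. For these 4 genes the ranges of the groups did not overlap, narrowly so for MT1F, beside 54.1% of all genes whose log2 CPM did not overlap. The share of MT2A was 60.3% to 63.0% against 62.7% to 64.8% and that of MT1M 0.618% to 1.0% against 0.270% to 0.674%, both with overlap. These shares are of reads and not of molecules, since the transcripts differ in length.

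**Figure D3:**
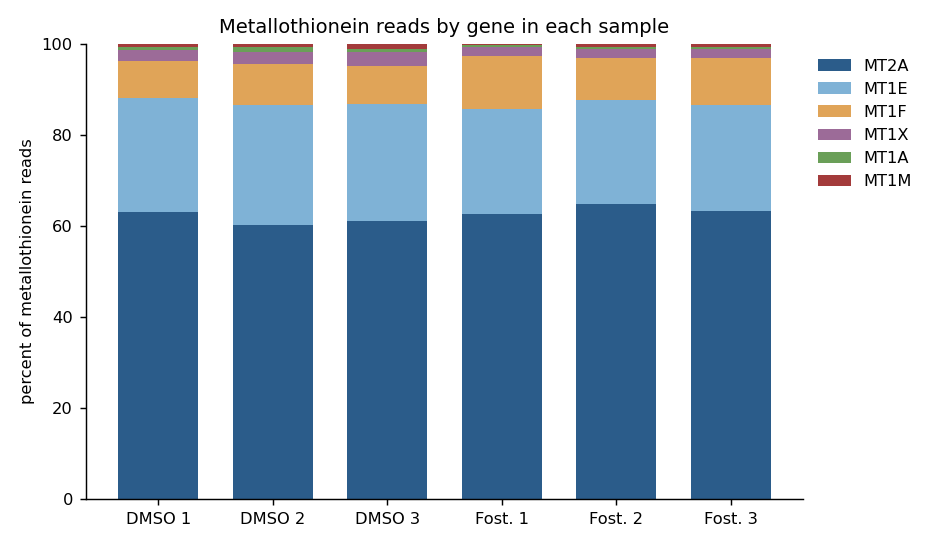
Share of each of the 6 measured metallothioneins in the metallothionein reads of each sample, in percent. MT2A holds 60.3% to 64.8% in every sample, the MT1E band is thinner and the MT1F band thicker in the Fostamatinib samples.

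Ratios between metallothioneins within a sample do not depend on the library size. The log2 ratio of MT1E to MT1F was 1.59 ± 0.047 (SD, n = 3) with DMSO and 1.16 ± 0.17 with Fostamatinib, a difference of -0.42 without overlap (exact permutation test over samples, two-sided p = 0.10). The log2 ratio of MT1E to MT2A went from -1.25 ± 0.067 to -1.46 ± 0.035, a difference of -0.20 without overlap (exact permutation test, p = 0.10). That of MT1F to MT2A was -2.84 ± 0.11 and -2.62 ± 0.20, with overlap (exact permutation test, p = 0.20). All 15 pairs were compared, and the adjusted value of the lowest p was 0.167. With 3 samples against 3 the smallest p this test can give is 0.10, so no pair could pass at 0.05.

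MTF1 (ENSG00000188786, chromosome 1 from 38275246 to 38325264 on the - strand), the zinc-sensing activator of these genes, was slightly lower after Fostamatinib. It had 5.15, 5.24 and 5.25 log2 CPM with DMSO and 5.06, 5.02 and 5.05 log2 CPM with Fostamatinib, without overlap. The log2 fold change was -0.17 (standard error 0.065, 95% interval -0.30 to -0.038, adjusted p = 0.0295). The call was lost without DMSO replicate 2, DMSO replicate 3 or Fostamatinib replicate 1, 2 or 3, where the adjusted p was 0.0757, 0.0640, 0.0525, 0.0879 and 0.0609, with a log2 fold change between -0.20 and -0.15 over all omissions of 1 sample.

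SLC30A1 (ENSG00000170385, chromosome 1 from 211744910 to 211752503 on the - strand), the plasma membrane exporter, was not called. Its values were 5.85, 5.75 and 6.03 log2 CPM with DMSO and 5.68, 5.86 and 5.88 log2 CPM with Fostamatinib, and the groups overlapped. The log2 fold change was -0.067 (standard error 0.064, 95% interval -0.20 to 0.063, adjusted p = 0.410). Without DMSO replicate 3, its highest sample, the log2 fold change was 0.0094. It was -0.13 without DMSO replicate 2 and -0.0067 without Fostamatinib replicate 1.

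The metallothionein genes lie side by side on chromosome 16, and their copies are alike in sequence. Windows of 50 bases were compared between all transcripts of GENCODE version 44, which is newer than the annotation on which the authors counted. Of those of MT1X 18.7% also occurred in a transcript of another gene, largely a long non-coding RNA that overlaps its exons on the same strand. For MT1M the share was 18.2%, for MT1E 7.10%, for MT1A 5.76%, for MT2A 4.48% and for MT1F 1.24%. MTF1 had 0.642% and SLC30A1 none of its 5844 windows. Reads from such windows could be counted for a neighbouring copy or left out, and how the counting treated them is not given in the sources used here. By this share MT1M and MT1X are the least certain members in identity. For MT1X this is mostly against the overlapping long non-coding RNA (273 of its 1821 windows) and not against another metallothionein. The windows come from all annotated transcripts of a gene, 1934 for MT1F, whose canonical transcript has 425 bases. The shares therefore do not order the canonical transcripts by identity.

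Of 13 other metallothionein genes and pseudogenes on a list, 1 was measured. MT1L (ENSG00000260549, chromosome 16 from 56651475 to 56652592), a transcribed pseudogene between MT2A and MT1E, had 50, 49 and 37 reads with DMSO and 34, 22 and 28 reads with Fostamatinib. It fell without overlap, by 0.61 on the log2 scale (adjusted p = 0.0263, standard error 0.23). The adjusted p was 0.132 without DMSO replicate 1, 0.0754 without DMSO replicate 2, 0.155 without Fostamatinib replicate 2 and 0.0844 without the mean-variance trend. All of its 137 windows also occur in a long non-coding RNA annotated at the same place in GENCODE version 44. Whether the older annotation on which the authors counted held this RNA was not checked.

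Genes that flank the cluster moved in both directions. Of 9 neighbours on the list 6 were measured, 2 were higher and 3 lower, with a median log2 fold change of -0.16. Among all genes 47.8% were called, 23.3% higher and 24.5% lower. OGFOD1 fell by 0.59 on the log2 scale (adjusted p = 1.98e-11) and NUDT21 changed by -0.41 (adjusted p = 3.15e-08), both upstream of MT2A, and NUP93 downstream of MT1X changed by -0.25 (adjusted p = 2.42e-04). The rise of BBS2 was small (0.17, adjusted p = 0.0496). With the library size alone for scaling, or without the mean-variance trend, 3 rather than 5 neighbours passed. Along the cluster MT1F rose between MT1A, which fell, and MT1X, which was not called.

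**Figure D4:**
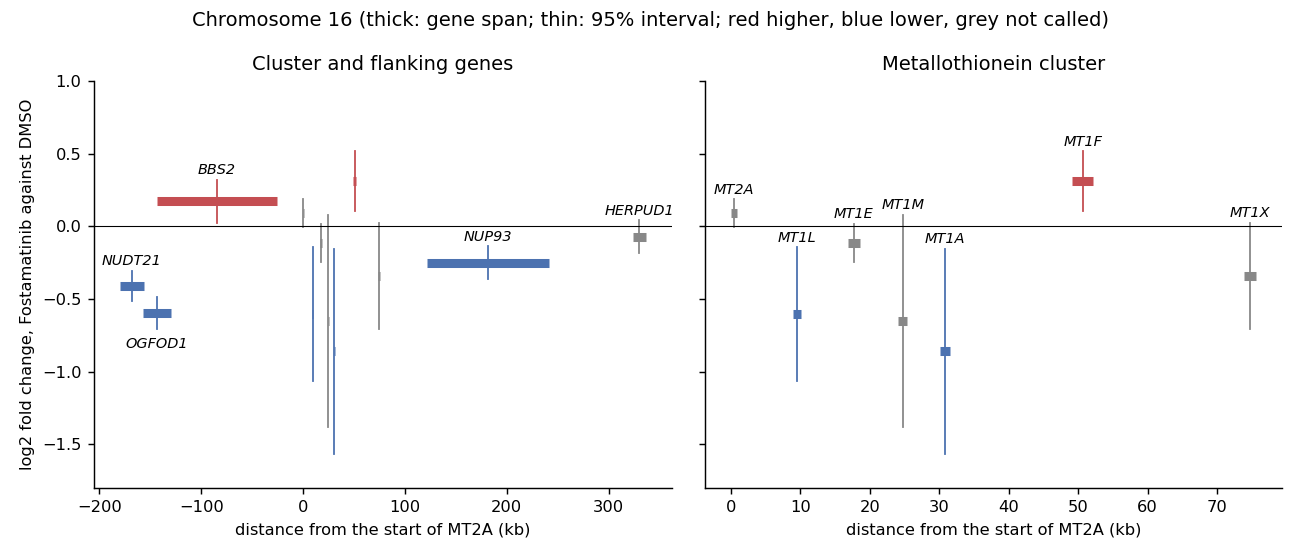
Log2 fold change of genes in and around the metallothionein cluster of chromosome 16 against their distance from the start of MT2A in kb (thick bars: gene span, thin bars: 95% interval, red higher, blue lower, grey not called). The right panel enlarges the cluster, in which MT1F at 0.31 is the single called rise and MT1A at -0.86 and MT1L at -0.61 are the called falls.

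Other zinc transporter genes were called in 2 of 6 cases in the SLC30 family and 8 of 11 in the SLC39 family, where 47.8% of all genes were called. The groups did not overlap for 2 of these 6 and 9 of these 11 genes, against 54.1% of all genes. The median log2 fold change was 0.068 over the SLC30 genes, 0.10 over the SLC39 genes and 0.0015 over all genes. The SLC30 family exports zinc from the cytosol, and the SLC39 family brings it in. Of 9 other SLC30 genes 6 were measured, with 1 higher and 1 lower. SLC30A4, which loads zinc into vesicles, rose from 26, 13 and 17 reads with DMSO to 35, 54 and 50 reads with Fostamatinib, or by 1.41 on the log2 scale (adjusted p = 3.15e-05, standard error 0.26). SLC30A7, which loads zinc into the Golgi, fell with -0.28 (standard error 0.082, adjusted p = 4.92e-03).

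Of 14 SLC39 genes 11 were measured, with 5 higher and 3 lower. SLC39A14, a liver importer of zinc, manganese and non-transferrin iron, rose from 8.44, 8.50 and 8.54 log2 CPM with DMSO to 9.23, 9.32 and 9.30 log2 CPM with Fostamatinib, or by 0.79 (adjusted p = 3.07e-19, standard error 0.037). SLC39A5, an importer of polarised epithelia, rose from 16, 33 and 25 reads to 104, 118 and 89 reads, or by 2.19 on the log2 scale (adjusted p = 2.24e-11, standard error 0.20). SLC39A8, the closest relative of SLC39A14, fell from 513, 508 and 557 reads to 242, 228 and 224 reads, a change of -1.09 on the log2 scale (adjusted p = 2.16e-14, standard error 0.076). SLC39A13 and SLC39A7, which release zinc from compartments of the secretory pathway, rose with 0.51 (adjusted p = 5.44e-09) and 0.20 (adjusted p = 7.57e-05). SLC39A3 and SLC39A6, importers of the plasma membrane, fell with -0.39 (adjusted p = 1.64e-03) and -0.29 (adjusted p = 3.06e-05).

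**Figure D5:**
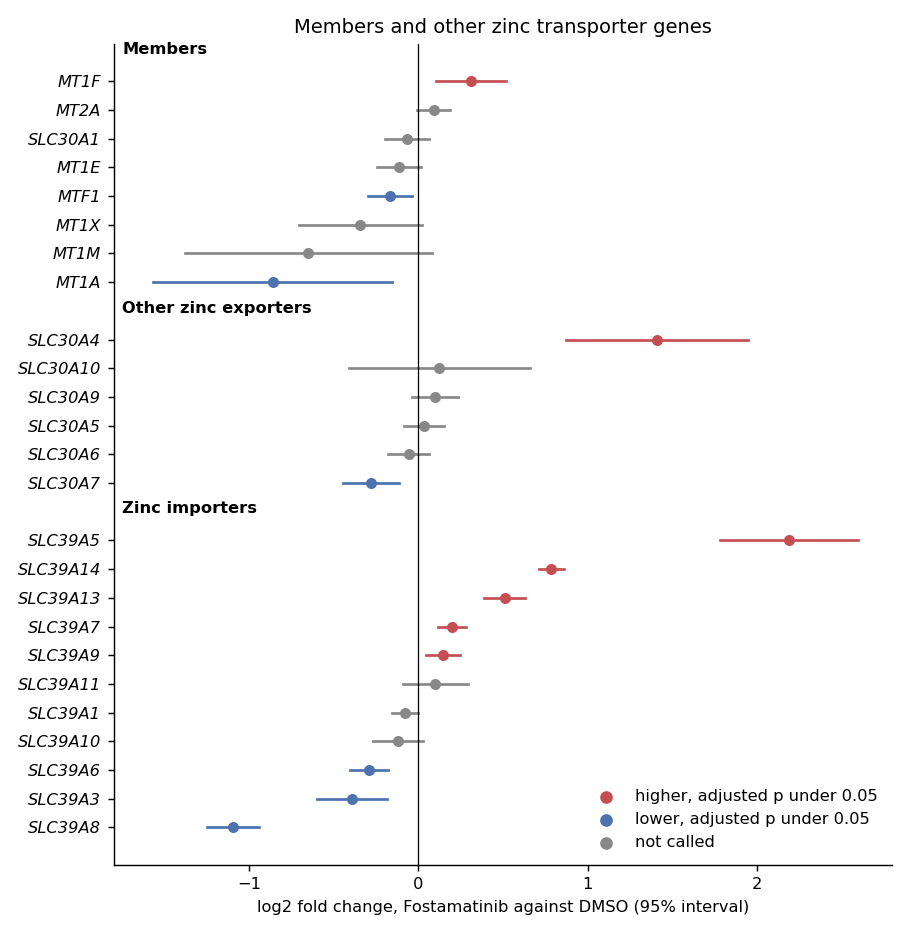
Log2 fold change of Fostamatinib against DMSO with its 95% interval for the 8 measured members, 6 other zinc exporters and 11 zinc importers (red higher and blue lower at an adjusted p under 0.05, grey not called). The members lie between -0.86 and 0.31, while the importers reach from -1.09 for SLC39A8 to 2.19 for SLC39A5.

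Copper also binds metallothioneins, and all 13 copper genes on a list were measured, with 3 higher and 4 lower. Their median log2 fold change was 0.088. Among all genes 47.8% were called, 23.3% higher and 24.5% lower. The copper chaperones ATOX1 (0.49, adjusted p = 3.48e-07) and CCS (0.47, adjusted p = 7.62e-10) rose on the log2 scale. The importer SLC31A1 (-0.34, adjusted p = 2.47e-07), the reductase STEAP3 (-0.63, adjusted p = 8.56e-12) and the plasma copper protein ceruloplasmin, CP (-0.48, adjusted p = 1.18e-09), fell. SCO1 fell as well (-0.25, adjusted p = 1.85e-04), and COX17 rose by 0.17 (adjusted p = 0.0238).

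Other inducers of metallothioneins were followed through genes known to respond to them. Of 10 genes on the glucocorticoid list 9 were measured, with 3 higher and 4 lower and a median of -0.097. Among all genes 47.8% were called, 23.3% higher and 24.5% lower. The receptor NR3C1 (0.53, adjusted p = 1.77e-11), TSC22D3 (1.23, adjusted p = 1.72e-20) and PER1 (0.76, adjusted p = 2.23e-09) rose, whereas CEBPD (-1.74, adjusted p = 1.54e-22), SGK1 (-1.70, adjusted p = 7.95e-25), FKBP5 (-1.01, adjusted p = 1.90e-07) and ERRFI1 (-0.86, adjusted p = 1.50e-20) fell. Of 10 heavy metal and proteotoxic stress genes 9 were measured, with 3 higher and 2 lower, beside the same shares of all genes. The median of this list was -0.020, the largest change being that of GCLM. HMOX1, which heavy metals strongly induce, was not called (0.052, adjusted p = 0.553). The chaperone genes HSPA1B (0.18, adjusted p = 1.00e-03), BAG3 (0.18, adjusted p = 4.12e-03) and HSPA1A (0.15, adjusted p = 3.20e-03) rose, and GCLM (-0.42, adjusted p = 1.35e-06) and HSPH1 (-0.37, adjusted p = 1.01e-10) fell.

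The genes whose log2 CPM followed that of MT2A most closely over the 6 samples, among the 11485 genes averaging 50 reads or more, were COX6B1, ZBTB49, ELMSAN1, LZTS2 and C17orf62, with Pearson r of 0.986 to 0.993. MT2A itself spanned 0.18 on the log2 scale over these samples, so the likeness concerns small differences between libraries.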

How the data were processed

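RNA-seq data of 3 DMSO- and 3 Fostamatinib-treated Huh7SR samples were analysed, grouped by their labels. Per the labels and the study's methods, polyA-selected RNA was prepared with a directional kit, and the authors used HISAT for alignment to hg19 and featureCounts for counting on GENCODE genes, filtered out weakly covered genes and applied TMM scaling. The deposited values are log2 CPM, which the authors computed from each count plus 0.5 and the TMM-scaled library size. Low genes therefore have understated fold changes. Whether the treatments in triplicate were separate cultures is not stated, so p-values may measure only technical spread.

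All 16305 genes entered a limma 3.58.1 fit (R 4.3.3, eBayes with a mean-variance trend) with no covariate besides treatment, adjusted by Benjamini-Hochberg. The fit was also run on simulated data with 200 changed genes, whose changes were larger than the estimate for any member. That simulation therefore does not cover changes of the members' size. The moderated variance borrows from other genes (median 33.9 total degrees of freedom against 4 residual). Reads were recovered from the deposited values, all within 0.05 of a whole number. Coordinates, lengths and transcripts are from GRCh37 (the same build as hg19) with GENCODE version 44. The authors counted on an older GENCODE version, so lengths, overlaps and shared windows may differ from those in the counting. Exact tests used scipy 1.17.1 under Python 3.11.15, and tables pandas 2.3.3. The labels give both groups replicate numbers 1 to 3.

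The members and gene lists were chosen with earlier results of these data known. Named were all members, measured other metallothioneins, up to 4 called genes in each direction of each list (by size of change, from SLC30, SLC39, copper, glucocorticoid, stress and neighbour genes), and the 5 genes most like the most abundant member. Alternatives were limma-voom on recovered reads, no trend, RLE or plain library scaling, a minimum of 10 reads in every sample, log2 of CPM plus 1, a replicate block and the omission of each sample. Removing the filter on low genes could not be tried, as the authors had already applied it. The values of 1 neighbour of the cluster that the lists count are not reported here.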

Additional observations from a re-analysis of the deposited data

How the results depend on the processing

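The number of genes that passed the test was 7794 and lay between 6382 and 7977 over the 13 alternatives. Of the members 3 passed, and 2 to 3 passed under each alternative that kept all samples; when 1 sample was left out the number was 0 to 2, with 0 without Fostamatinib replicate 1 and 1 without DMSO replicate 1, DMSO replicate 2 or Fostamatinib replicate 3. MT2A, MT1E, MT1M, MT1X and SLC30A1 were called under no alternative run on them. The direction of each member was kept throughout, except for SLC30A1, whose log2 fold change ranged from -0.13 to 0.0094 when 1 sample was left out, the latter without DMSO replicate 3. MT1A and MT1M had fewer than 10 reads in a sample and could not be fitted under that filter.

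Without the mean-variance trend, 0 of the other metallothioneins, 1 zinc exporter and 3 neighbours of the cluster passed, against 1, 2 and 5 with it, and with the library size alone 3 neighbours passed. With 1 sample left out these numbers were 0 to 1, 1 to 3 and 3 to 4. MT1L was not called without DMSO replicate 1, DMSO replicate 2 or Fostamatinib replicate 2, only 1 exporter passed without Fostamatinib replicate 2, and 3 neighbours passed without DMSO replicate 1 or Fostamatinib replicate 1, 2 or 3. The cause was not tested. The other lists stayed within 1.5 times their number.

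When a replicate block was added, 7977 genes and 3 members passed, and no member's call changed. The samples share only a number: deviations from the group means of same-numbered samples had correlations of 0.028, -0.019 and 0.013, and 2 of 6 samples correlated best with their own number. Depth limits MT1A and MT1M most, with 6 to 23 reads in each sample.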
